A study of Homo sapiens with 8 samples.

Results

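Aminoacyl-tRNA synthetases attach amino acids to their tRNAs. The 35 listed synthetase genes, 19 for cytosolic and 16 for mitochondrial enzymes, were taken by name from the 60664 gene identifiers of the count tables, and all 35 were found and tested in both pulldowns. In the TRiC pulldown, 6 cytosolic enzymes (VARS1, KARS1, MARS1, SARS1, AARS1 and YARS1) were called lower in ribosome-protected fragments (RPFs) than in total ribosomes, or 31.6% of the cytosolic list, and no synthetase was called higher. Of all genes tested 10.6% were called lower, and of protein-coding genes with mean counts of 1000 or more, where the cytosolic enzymes lie, 24.4% were. No synthetase passed the same test in the PFD pulldown. The test used no replicate block. With the replicate number as a block, 9 cytosolic enzymes and EARS2 were called lower in the TRiC pulldown, and EPRS1 and AARS2 higher. That fit called 2652 of 17934 genes tested lower and 2037 higher.

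Each synthetase recognizes its amino acid in a catalytic domain of class I or class II and pairs it with the matching tRNA. Mammalian cells carry a cytosolic set for translation of nuclear-encoded mRNAs and a nuclear-encoded mitochondrial set, which is made on cytosolic ribosomes and imported into mitochondria, usually through a basic, cleaved amino-terminal presequence. Several cytosolic enzymes sit in a multisynthetase complex built on the scaffold proteins AIMP1, AIMP2 and EEF1E1. EPRS1 joins the glutamyl and prolyl activities in a single chain, FARSA and FARSB form a heterotetramer, and GARS1 and KARS1 each also give rise to a mitochondrial form of their enzyme. TRiC is the cytosolic chaperonin, a closed chamber in which actin, tubulin and other proteins fold, and prefoldin (PFD) is a hexameric chaperone that hands clients to it.

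RPFs are the mRNA pieces that a ribosome shields from nuclease, and their count per gene follows both the amount of an mRNA and how many ribosomes it carries, which cannot be told apart here. They were sequenced from the human osteosarcoma line U-2 OS, from total ribosomes (input) and from ribosomes recovered with a tagged chaperone (pulldown). In the TRiC line a HaloTag was integrated at the TRiC subunit CCT4 with CRISPR-Cas9, and in the PFD line at the prefoldin subunit PFD4. Both lines were obtained as single clones, so a property of a clone and of its tag cannot be told apart between them. All groups received cycloheximide at 100 µg/ml for 1 min and the crosslinker DSP at 2 mM for 30 min, and input and pulldown of each line had 2 biological replicates, which gives 4 groups and 8 libraries.

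Libraries held 9523128 to 32637658 counts. edgeR estimated a common dispersion of 0.0153 for the TRiC line and 0.331 for the PFD line, so that the same difference was harder to call in the PFD line. Over the synthetases, the median of the gene-wise dispersions was lower, at 0.00427 in the TRiC and 0.0243 in the PFD line. Among 5 osteoblast-lineage genes, COL1A1 (3216 to 4505 CPM, counts scaled to the library total) and SPARC (2216 to 3150) were abundant in the 4 inputs, RUNX2 reached 40.7 to 60.3, ALPL 2.52 to 43.3, and COL1A2 0.0523 to 1.76. The blood cell gene PTPRC had 0 to 2 counts, and CD3E had 0 in every input. Of the epithelial genes looked at, EPCAM had 8.70 to 18.4 CPM, above COL1A2, and CDH1 had 0 to 0.729 CPM.

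The lists differ at the start of the coding sequence, whose product leaves the ribosome first. Over the first 40 codons, the encoded net charge (Arg and Lys minus Asp and Glu) was above 0 in 3 of 19 cytosolic and 15 of 16 mitochondrial enzymes, with medians of -2 and 5.5. The median number of acidic residues there was 7 in the cytosolic and 1 in the mitochondrial list. The first 60 coding bases (hg38, GENCODE release 44) are shown for 3 pairs of enzymes that charge the same amino acid, chosen because 2 of the pairs hold a cytosolic member that fell in the TRiC pulldown and the HARS pair has the most similar proteins, and for GARS1. Codons for Arg and Lys are in capitals.
SARS1: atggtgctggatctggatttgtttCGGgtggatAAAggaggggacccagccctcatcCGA
SARS2: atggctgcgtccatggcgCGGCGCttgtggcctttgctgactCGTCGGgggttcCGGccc
VARS1: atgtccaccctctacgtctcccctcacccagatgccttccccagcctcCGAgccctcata
VARS2: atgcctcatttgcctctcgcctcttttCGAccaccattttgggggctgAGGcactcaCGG
HARS1: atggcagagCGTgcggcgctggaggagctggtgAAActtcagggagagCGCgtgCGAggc
HARS2: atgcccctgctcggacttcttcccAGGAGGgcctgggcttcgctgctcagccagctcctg
GARS1: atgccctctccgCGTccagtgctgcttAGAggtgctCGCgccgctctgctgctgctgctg
In these 60 bases SARS1 has 3 Arg or Lys codons and 4 for Asp or Glu, whereas SARS2 has 5 and 0. VARS1 has 1 of each kind, and VARS2 has 3 and 0. HARS1 holds 4 of each and HARS2 2 and 0. GARS1, listed as cytosolic but with an annotated start that reads like the mitochondrial ones, has 3 and 0, and over its first 40 codons 7 and 0.

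Reads of the pairs could be kept apart. HARS1 and HARS2 were the most alike, with 72.6% identical residues over the aligned part, followed by TARS1 and TARS2 (53.9%) and VARS1 and VARS2 (51.6%), and FARSB and FARS2 were the least alike (21.7%). Even so, 0 coding stretches of 28 bases, about the length of an RPF, were shared within any pair. Of the coding stretches of 28 bases of each gene that were found in the genome, at most 3.03% (FARSB) occurred at more than 1 place, and 2.59% did for KARS1 and 1.43% for RARS1. Stretches not found there, as across exon junctions, were left out (for FARSB 1351 of 1740 were found). A junction stretch found once elsewhere would count as unique. Exons of an opposite-strand gene covered over 10% of the exon bases of MARS1 (12.4%), WARS1 (10.6%) and YARS2 (18.1%). The counting strand is not given in the sources used here, so RPFs of such neighbours could be counted with these genes. HARS1 (chr5:140673035-140691537, minus strand) and HARS2 (chr5:140691430-140699305, plus strand) lie head to head. Opposite-strand exons of any gene, not of HARS2 alone, covered 8.46% of the exon bases of HARS1.

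Cytosolic enzymes were made at far higher levels than mitochondrial ones. Levels were taken in the inputs as CPM over the TMM-normalized library size, per kilobase of coding sequence, and the tables of the lines were normalized separately, so that levels were compared within a line. In the TRiC input the median was 125 CPM per kilobase over the cytosolic and 17.9 over the mitochondrial list, and in the PFD input 141 and 22.7. The threonyl enzyme TARS1 was highest in both lines, at 219 ± 3.20 in the TRiC input and 372 ± 13.5 in the PFD input (SD, n = 2).

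In the TRiC input TARS1 was followed by MARS1 (180), AARS1 (177), GARS1 (171) and QARS1 (168), which charge methionine, alanine, glycine and glutamine. The mean ± SD intervals of these last neighbours met, and those of TARS1 and MARS1 did not. From SARS1 (145) down to LARS1, the leucyl enzyme, neighbouring intervals met without a break. The lowest cytosolic gene was FARSA, the catalytic subunit of the phenylalanyl enzyme, at 30.5 ± 4.08, against 67.8 ± 5.44 for its partner subunit FARSB. Over the whole order of 35, intervals of 17 of 34 neighbouring pairs met in the TRiC input and 21 of 34 in the PFD input.

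Among mitochondrial enzymes, the isoleucyl enzyme IARS2 stood highest in both lines (58.7 ± 0.715 and 59.1 ± 1.76) and lay among the lowest cytosolic genes, with an interval that met that of HARS1 in each line. The prolyl enzyme PARS2 had 8.19 and 8.19 CPM in the TRiC inputs and 8.92 and 13.9 CPM in the PFD inputs. The valyl enzyme VARS2 was the lowest synthetase in both lines, with 0.696 ± 0.120 and 0.949 ± 0.882. Its counts were 69 and 59 in the TRiC and 20 and 52 in the PFD inputs, so its fold changes were the least precise of the list.

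**Figure D1:**
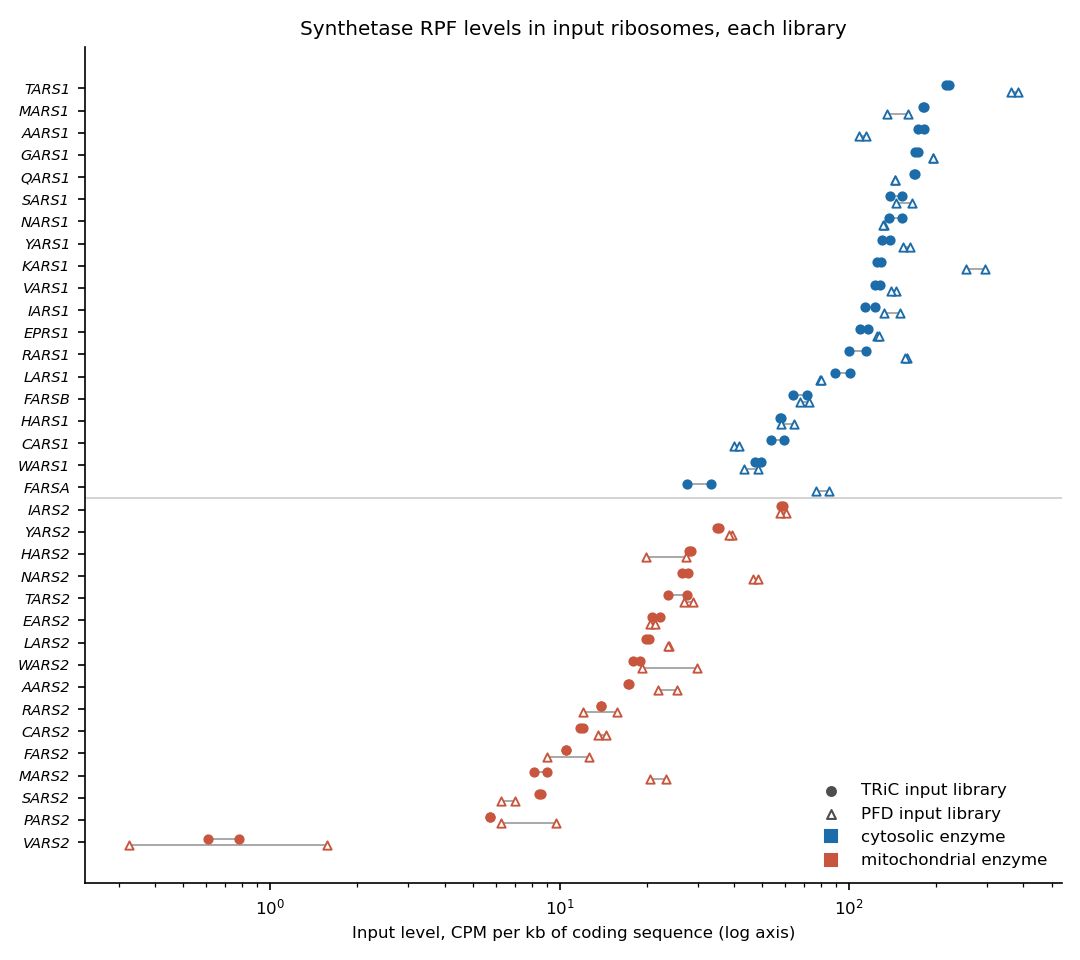
Input RPF level of each synthetase gene in CPM per kilobase of coding sequence (log axis), with a point for each of the 2 TRiC input (filled circles) and 2 PFD input libraries (open triangles) and a line joining replicates. Cytosolic genes (blue) fill the upper range, with TARS1 highest in both lines, and VARS2 lies far below all other mitochondrial genes (red).

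Within each of the 17 pairs of a cytosolic and a mitochondrial enzyme for the same amino acid, the cytosolic gene had the higher level in both lines. EPRS1 was paired with EARS2 and with PARS2, and FARSA and FARSB with FARS2. In the TRiC input the ratio ran from 2.01 for IARS1 over IARS2 to 180 for VARS1 over VARS2, with a median of 5.36, and in the PFD input from 1.87 for WARS1 over WARS2 to 150 for VARS1 over VARS2, with a median of 6.01. The HARS pair, whose genes lie head to head, was among the closest, with ratios of 2.06 and 2.60.

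The order of levels was much alike in both lines (Spearman's rho 0.938 and Pearson's r 0.967 over 35 genes, which share the genome annotation and the cell line). Some genes stood apart, and these gaps between separately normalized tables were not tested. The lysyl enzyme KARS1 had 126 ± 2.65 in the TRiC and 274 ± 29.5 in the PFD input. FARSA had 30.5 against 80.9, and the mitochondrial asparaginyl enzyme NARS2 27.1 against 47.5. AARS1 ran the other way, with 177 in the TRiC and 111 in the PFD input. Thus FARSA lay below FARSB in the TRiC line and above it (80.9 ± 6.21 against 70.3 ± 3.49) in the PFD line.

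Taken as a share of each library's counts, the cytosolic list was smaller in both TRiC pulldowns than in both TRiC inputs. It made up 0.530% and 0.568% of the TRiC inputs and 0.510% and 0.504% of the TRiC pulldowns. The mitochondrial list took 0.0599% and 0.0622% of the inputs and 0.0627% and 0.0628% of the pulldowns. The ratio of cytosolic to mitochondrial synthetase counts, which needs no scaling between libraries, was 8.85 and 9.13 for inputs against 8.13 and 8.02 for pulldowns, and these groups did not overlap.

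In the PFD line the shares overlapped. Cytosolic enzymes took 0.634% and 0.624% of input counts and 0.612% and 0.642% of the pulldowns, and mitochondrial enzymes 0.0712% and 0.0740% against 0.0746% and 0.0720%. The cytosolic to mitochondrial ratio was 8.91 and 8.44 for inputs against 8.20 and 8.92 for pulldowns.

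**Figure D2:**
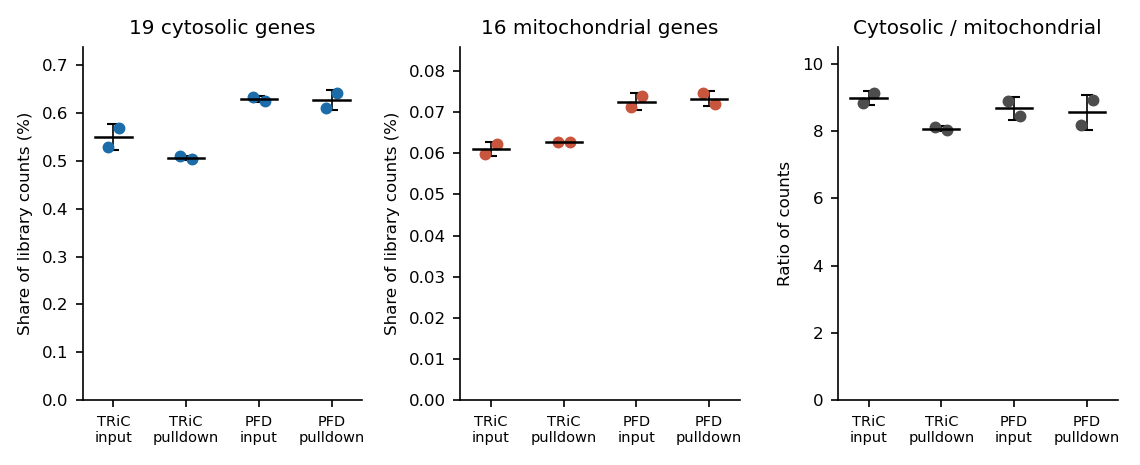
Share of each library's counts on the 19 cytosolic genes (left) and the 16 mitochondrial genes (middle), in percent, and the ratio of both sums (right); points are libraries, the horizontal bar is the mean and the error bar the SD (n = 2). The ratio is 8.85 and 9.13 in the TRiC inputs and 8.13 and 8.02 in the TRiC pulldowns, whereas the PFD groups overlap.

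The TRiC pulldown was compared with its input to ask which synthetases are made on ribosomes recovered with TRiC. A log2 fold change below 0 means a lower TMM-scaled level in the pulldown than in the input, not absence from it. It need not be a smaller share of all library counts. Scaling by library totals moved the median of all genes from -0.003 to 0.04 and that of the mitochondrial list from -0.03 to 0.014. With edgeR's quasi-likelihood test and Benjamini-Hochberg adjusted p under 0.05 over all genes tested, 6 of 19 cytosolic enzymes were called lower and 0 higher, where 10.6% of all 17934 genes tested were called lower and 8.64% higher. RPF counts of these enzymes are high, and of the 5525 protein-coding genes with mean counts of 1000 or more, 24.4% were called lower and 9.59% higher. No mitochondrial enzyme was called, and DESeq2 called 0 as well. An unadjusted p under 0.05 was found for 3 of 16, and for 32.5% of all genes tested. DESeq2 called the same 6 cytosolic enzymes lower, where it called 9.02% of all genes lower and 7.87% higher.

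The valyl enzyme VARS1 (chr6:31777518-31795752, minus strand) fell from input counts of 13398 and 14051 to pulldown counts of 12283 and 8549, or from 474 ± 13.6 CPM to 354 ± 20.5 (SD, n = 2). Both pulldowns lay below both inputs, and the log2 fold change was -0.42 ± 0.070 (SE, edgeR adjusted p = 0.000631), the lowest of the cytosolic list. KARS1, the lysyl enzyme of the multisynthetase complex (chr16:75627474-75648643, minus strand), had input counts of 6184 and 6958 and pulldown counts of 5743 and 4378, or 226 ± 4.75 CPM against 173 ± 1.10. Its groups were likewise separate, with a log2 fold change of -0.39 ± 0.074 (edgeR adjusted p = 0.00170).

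MARS1, the methionyl enzyme of the same complex (chr12:57475445-57517569, plus strand), had 13518 and 14688 input counts and 12906 and 10247 pulldown counts, or 486 ± 1.81 CPM against 397 ± 13.9, and a log2 fold change of -0.29 ± 0.067 (edgeR adjusted p = 0.00583). SARS1, which also serves selenocysteine synthesis by charging its tRNA with serine (chr1:109213918-109238182, plus strand), had 6498 and 6481 input and 6479 and 4476 pulldown counts, or 224 ± 14.4 CPM against 186 ± 11.8. The log2 fold change of SARS1 was -0.27 ± 0.080 (edgeR adjusted p = 0.0250). Pulldowns lay below inputs in both genes without overlap.

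For AARS1, the alanyl enzyme (chr16:70251983-70289707, minus strand), input counts were 13920 and 15918 and pulldown counts 15127 and 10376, or 514 ± 16.7 CPM against 433 ± 29.6, with a log2 fold change of -0.25 ± 0.071 (edgeR adjusted p = 0.0204). For YARS1, the tyrosyl enzyme (chr1:32775237-32818031, minus strand), they were 5699 and 6632 against 5990 and 4584, or 212 ± 9.51 CPM against 181 ± 1.64, with a log2 fold change of -0.23 ± 0.076 (edgeR adjusted p = 0.0398). All 6 changes were under 1.5-fold in size, and glmTreat against a 1.5-fold change called 0 of 35 members.

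EPRS1, the glutamyl-prolyl enzyme and the longest synthetase (1512 codons), was the only cytosolic gene above 0. Its input counts were 13747 and 15952 and its pulldown counts 17891 and 15111, or 511 ± 21.9 CPM against 569 ± 44.8. Both pulldowns were above both inputs, and the log2 fold change was 0.15 ± 0.072 (edgeR adjusted p = 0.148). It passed the test with the replicate number as a block, after cyclic loess and with a minimum of 100 counts. In these fits, in that order, 2037 of 17934, 1569 of 17934 and 1699 of 11166 genes tested were called higher.

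The remaining 12 cytosolic genes had log2 fold changes from -0.23 to -0.05, all below 0. In all, 18 of 19 cytosolic genes were below 0, with a list median of -0.16, where 50.3% of all genes tested and 64.4% of high-count protein-coding genes were below 0. Over all genes tested the median was -0.003, and over the protein-coding genes with mean counts of 1000 or more it was -0.10. Both pulldowns lay below both inputs in 13 cytosolic genes and above in 1, where 31.2% and 29.3% of all genes tested did so.

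The cytosolic list holds 7 enzymes of the multisynthetase complex and 12 outside it, and the difference between them was not tested. Of the complex, 2 (KARS1, MARS1) were called lower and the median was -0.10, with EPRS1 above 0. Outside the complex 4 were called lower, all 12 were below 0 and the median was -0.17. By catalytic class, 3 of 9 cytosolic class I enzymes (MARS1, VARS1, YARS1) and 3 of 9 of class II (AARS1, KARS1, SARS1) were called lower, with medians of -0.17 and -0.16. Of protein-coding genes with mean counts of 1000 or more, 24.4% were called lower, with a median of -0.10. The complex, with 28.6% called lower, lay near these values, and 33.3% were called lower outside it and in each class.

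**Figure D3:**
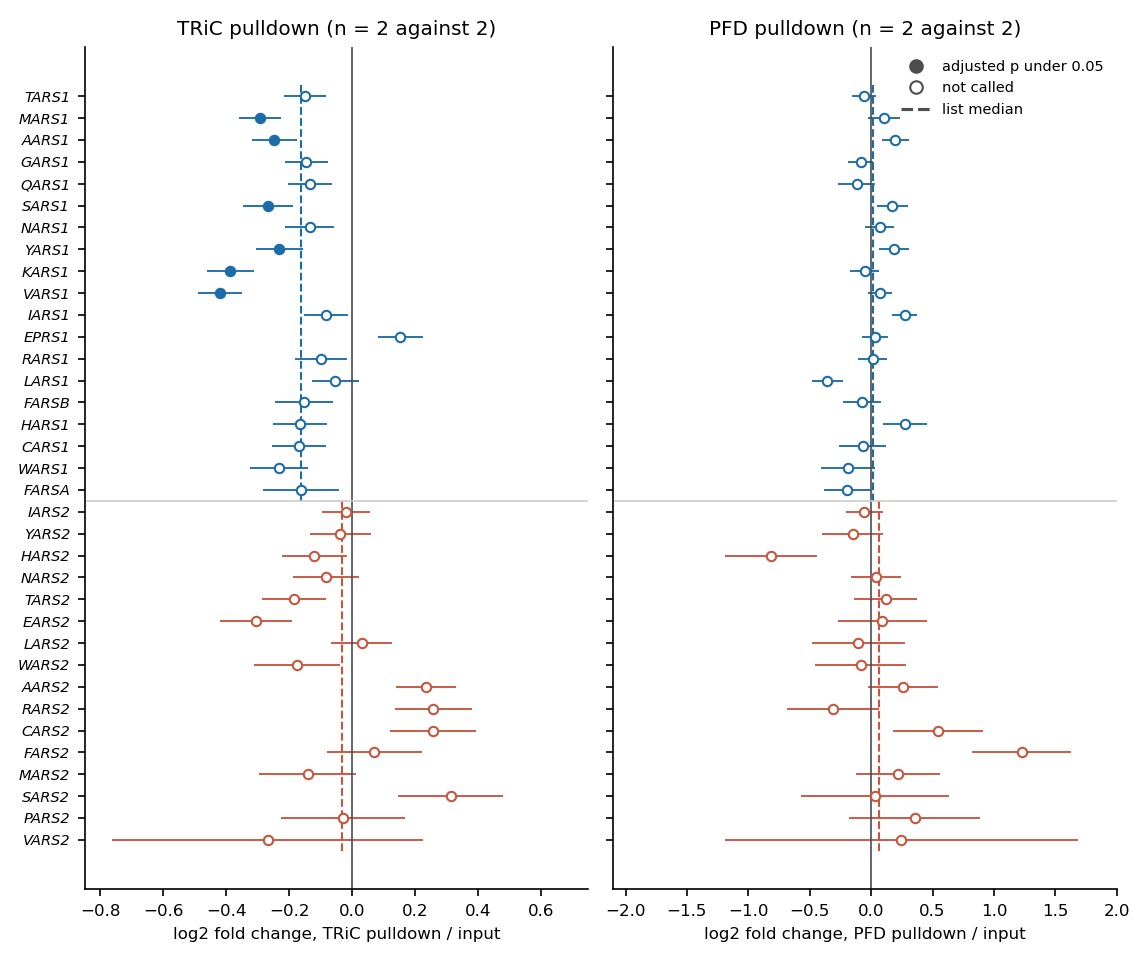
log2 fold change of pulldown over input for each synthetase in the TRiC (left) and PFD line (right), with standard errors as bars, filled points where the edgeR adjusted p was under 0.05, and dashed lines at list medians; the horizontal scales differ. In the TRiC panel 18 of 19 cytosolic genes (blue) are below 0 and 6 are filled, while mitochondrial genes (red) lie on both sides, and no point is filled in the PFD panel.

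Mitochondrial enzymes lay on both sides of 0 in the TRiC pulldown, with 10 below and 6 above, a range of -0.30 to 0.31 and a median of -0.03. The lowest was EARS2, the glutamyl enzyme, with input counts of 904 and 1052 and pulldown counts of 938 and 663, or 33.7 ± 1.51 CPM against 27.2 ± 1.28. Its log2 fold change was -0.30 ± 0.115 (edgeR adjusted p = 0.0718), and its groups did not overlap. The highest was the seryl enzyme SARS2, with 364 and 405 input counts and 627 and 353 pulldown counts, or 13.3 ± 0.173 CPM against 16.4 ± 3.39.

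For SARS2 the log2 fold change was 0.31 ± 0.166 (edgeR adjusted p = 0.205), and most of it came from pulldown replicate 1 (18.8 CPM, against 14.0 in replicate 2). AARS2 (0.24), CARS2 (0.26), RARS2 (0.26) and FARS2 (0.07) also had both pulldowns above both inputs. Both pulldowns thus lay above both inputs in 5 of 16 mitochondrial genes and below in 7, where 29.3% and 31.2% of all genes tested did so, and the groups of 4 overlapped.

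Standard errors were wider for the mitochondrial list, with a median of 0.119 against 0.0747 for the cytosolic list, and its median input count was 838 against 6938. The absence of calls in it was therefore read at a lower precision. Within the 17 pairs, the cytosolic gene had the lower log2 fold change in 14. The widest gap below 0 was in the seryl pair (SARS1 -0.27, SARS2 0.31), followed by the alanyl pair (AARS1 -0.25, AARS2 0.24), and the glutamyl pair ran the other way (EPRS1 0.15, EARS2 -0.30). The difference of the list medians, cytosolic minus mitochondrial, was -0.13.

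**Figure D4:**
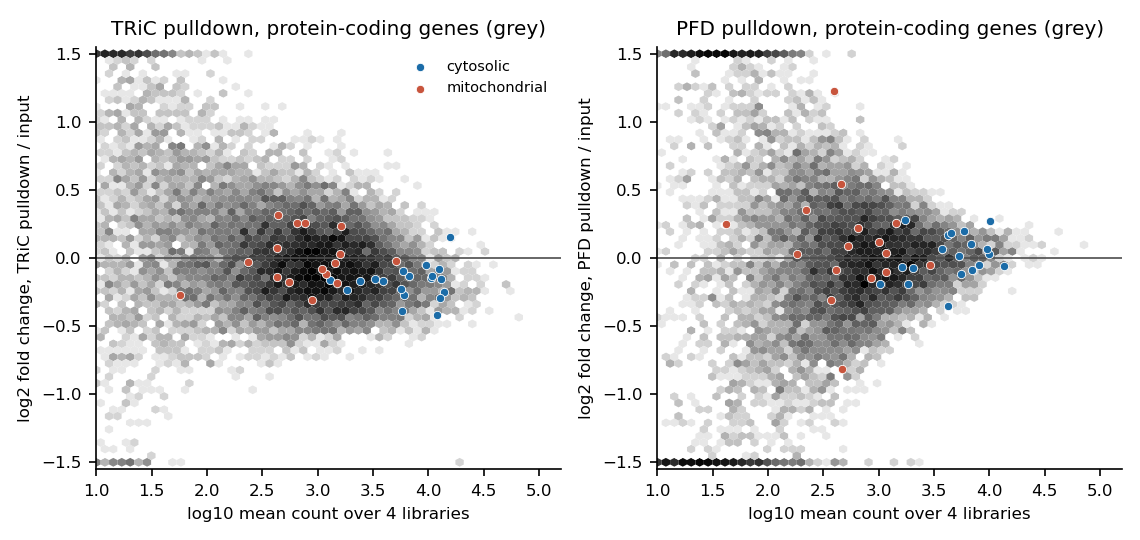
log2 fold change against log10 mean count over the 4 libraries of a line, for protein-coding genes tested (grey hexagons, darker where more genes fall, values past 1.5 in size drawn at the edge) and for cytosolic (blue) and mitochondrial (red) synthetases. Cytosolic genes lie at high counts, where the grey cloud of the TRiC panel also leans below 0 (median -0.10 at a mean count of at least 1000).

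Sequence features ran with the TRiC values only in part. Over the 19 cytosolic genes, the log2 fold change in the TRiC pulldown fell with the GC content of the coding sequence (Spearman's rho -0.60, Pearson's r -0.58). EPRS1, the only gene above 0, has 42.2% GC, and VARS1 61.5%, whereas FARSA, with the highest GC content (61.9%), had -0.16. Over the 16 mitochondrial genes rho was -0.08, and over all 14611 protein-coding genes tested it was -0.20. Over all 35 synthetases, rho was -0.03 with the number of codons and -0.31 with the input count. With the number of codons it was 0.25 over the cytosolic and -0.01 over the mitochondrial list. Over the 14611 protein-coding genes, rho with coding length was 0.35, larger in size than that with GC content. These points share libraries and base composition, and the part of GC content or coding length in the calls was not tested.

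Among 16 related genes of tRNA charging, 1 was called higher and 3 lower in the TRiC pulldown with edgeR. These were 6.25% and 18.75% of that list. Of all genes tested, 8.64% were called higher and 10.6% lower, and of the high-count protein-coding genes 9.59% and 24.4%. EEF1A1, which carries charged tRNA to the ribosome, rose (log2 fold change 0.61 ± 0.102, adjusted p = 0.000595). Its input level was 58.5 ± 7.66 CPM (SD, n = 2). Only uniquely aligned reads were counted, and how much of the EEF1A1 sequence is unique in the genome was not checked. The complex scaffold AIMP2 (-0.40 ± 0.0823, adjusted p = 0.00278), DTD1, which removes D-amino acids from tRNA (-0.76 ± 0.182, adjusted p = 0.00713), and the mitochondrial elongation factor TUFM (-0.36 ± 0.0794, adjusted p = 0.00429) fell. The other scaffolds had -0.11 (AIMP1) and -0.26 (EEF1E1) and were not called.

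Set beside other imported and cytosolic translation proteins, the synthetases differed in their counts, and no test of lists was made. Of 76 mitochondrial ribosomal protein genes tested (78 listed), 43 were called lower and 0 higher, with a median of -0.33, whereas of the mitochondrial synthetases 0 were called and the median was -0.03. Of 63 initiation and elongation factor genes tested (71 listed), 20 were called lower and 4 higher, with a median of -0.18, close to the -0.16 of the cytosolic synthetases. Of all genes tested, 10.6% were called lower and 8.64% higher. The lists were not matched for coding length, which ran with the TRiC values over protein-coding genes (Spearman's rho 0.35), and its part was not tested.

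In the PFD pulldown 0 of 35 synthetases were called by edgeR, where 0.0496% of 14111 genes tested were called higher and 0.191% lower. An unadjusted p under 0.05 was found for 3 members (IARS1, LARS1 and FARS2), and for 6.93% of all genes tested. DESeq2 called these 3, where it called 1.93% of genes higher and 2.22% lower. The medians were 0.01 over the cytosolic and 0.07 over the mitochondrial list, with 10 of 19 and 10 of 16 genes above 0. Both pulldowns lay below both inputs in 4 cytosolic and 2 mitochondrial genes (20.4% of all genes tested) and above in 6 and 2 (18.3%).

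Among cytosolic genes, the histidyl enzyme HARS1 was highest, with 1718 and 1017 input counts and 1129 and 2995 pulldown counts, or 93.6 ± 6.34 CPM against 113 ± 11.8 and a log2 fold change of 0.28 ± 0.177 (edgeR adjusted p = 0.863). IARS1, the isoleucyl enzyme, was close to it (0.27 ± 0.103, edgeR adjusted p = 0.706). The leucyl enzyme LARS1 was lowest, with 5408 and 2914 against 1877 and 6725 counts, or 281 ± 0.358 CPM against 219 ± 23.8. Its groups did not overlap, and its log2 fold change of -0.36 ± 0.129 (edgeR adjusted p = 0.706) was -0.35 with DESeq2 (adjusted p = 0.0497). In the TRiC pulldown LARS1 stood at -0.05.

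Mitochondrial genes spread further. FARS2, the mitochondrial phenylalanyl enzyme, had 236 and 177 input counts and 385 and 770 pulldown counts, or 14.7 ± 3.41 CPM against 34.3 ± 10.2. Both pulldowns were above both inputs, with a log2 fold change of 1.23 ± 0.403 (edgeR adjusted p = 0.702) that DESeq2 called (1.24, adjusted p = 0.0286). HARS2 lay at the other end, with 580 and 429 against 146 and 700 counts, or 35.7 ± 7.98 CPM against 20.2 ± 6.24, and a log2 fold change of -0.82 ± 0.376 (edgeR adjusted p = 0.731). The median standard error was 0.367 over the mitochondrial list and reached 1.44 for VARS2, against 0.121 over the cytosolic list. Without PFD pulldown replicate 2, edgeR called 4 synthetases lower (LARS1, QARS1, HARS2 and LARS2) and 2 higher (IARS1 and FARS2), and 8.76% of all genes lower. In several mitochondrial genes the PFD pulldowns disagreed with each other by more than the groups did, as for LARS2 (34.8 and 84.3 CPM in the pulldowns, 64.6 and 64.1 in the inputs).

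Of the 15 related genes tested in the PFD pulldown, 0 were called by edgeR. An unadjusted p under 0.05 was found for 2 of them, and for 6.93% of all genes tested. EEF1A1 had 0.48 ± 0.164 (adjusted p = 0.702) and AIMP2 -0.70 ± 0.169 (adjusted p = 0.437). Mitochondrial ribosomal proteins had a median of -0.16 over 77 genes tested and translation factors of -0.03 over 60, with 0 called in either list.

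Whether the pulldowns differed was tested as an interaction over all 8 libraries, TRiC fold change minus PFD fold change. It called 0 of 35 synthetases, where 0.0371% of 18855 genes tested were called, 0.0212% higher and 0.0159% lower with TRiC. An unadjusted p under 0.05 was found for 8 cytosolic genes and 1 mitochondrial gene, and for 14.8% of all genes tested (20.0% of protein-coding genes with mean counts of 1000 or more). The lowest adjusted p was that of VARS1 (-0.48 ± 0.131, edgeR adjusted p = 0.200), followed by AARS1 (-0.43 ± 0.120, adjusted p = 0.202). Of the cytosolic genes 16 of 19 were below 0, and of the mitochondrial genes 10 of 16, against 50.3% of all genes tested and 59.5% of the protein-coding genes with such counts.

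In 5 cytosolic genes (AARS1, HARS1, NARS1, SARS1 and YARS1) both TRiC pulldowns lay below their inputs and both PFD pulldowns above theirs, where 7% of the 13749 genes tested in both lines did so. RARS2 showed the opposite, as did 5.29% of those genes. VARS1, KARS1 and MARS1, called lower with TRiC, had 0.07, -0.05 and 0.11 with PFD, with overlapping groups. The difference between lines was thus not called for any synthetase, at a precision set largely by the PFD libraries. With a PFD pulldown library left out, the number of members called changed, most without replicate 2. The share of all genes called in those fits was not computed.

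**Figure D5:**
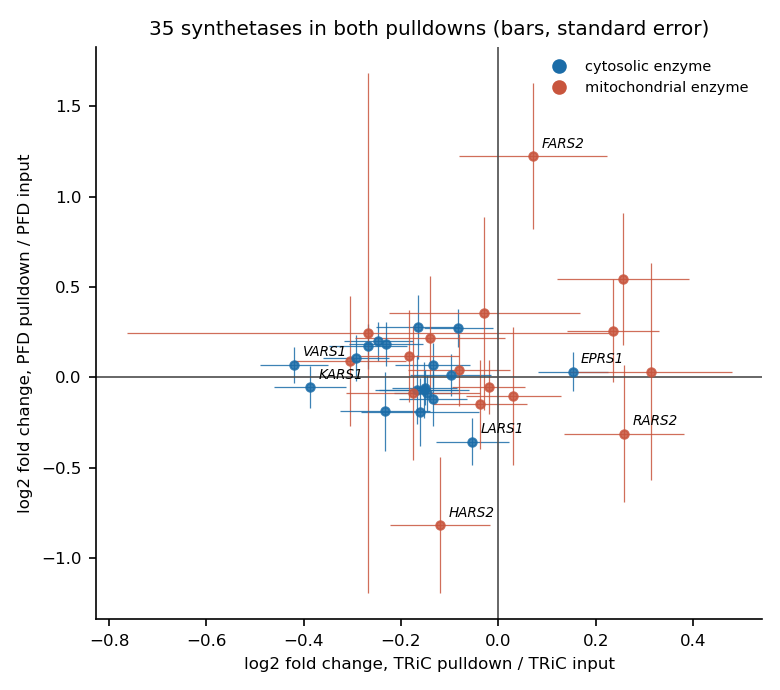
log2 fold change of each synthetase in the PFD pulldown against that in the TRiC pulldown, with standard errors as bars. Cytosolic genes (blue) lie left of 0 except EPRS1 and spread narrowly on the PFD axis (-0.36 to 0.28), and mitochondrial genes (red) reach from -0.82 (HARS2) to 1.23 (FARS2) on it.

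How many cytosolic genes were called with TRiC rested on single libraries, on scaling and on the replicate block. Without TRiC input replicate 1 there were 2 (KARS1 and VARS1), where 3.76% of all genes tested were called lower. Without TRiC input replicate 2 there were 3 (all genes 4.97%), and without TRiC pulldown replicate 1 there were 10 (13.9%). With the replicate number as a block 9 were called (14.8%). With library totals in place of TMM 3 were called (7.05%), after cyclic loess 2 (7.52%), and in the joint fit of all 8 libraries 0 (0.0796%). KARS1 and VARS1 were called lower in each of these fits but the joint one.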

How the data were processed

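Human U-2 OS RPFs were analysed from 2 deposited tables, 1 for each tagged line. The deposited values are counts per gene, whole numbers with no normalization. The authors trimmed and demultiplexed reads with awk, used UMI-tools, removed non-coding RNA with Bowtie2 2.4.2, and aligned with STAR 2.7.10a to hg38 (unique alignments, gene counting). Annotation release and counting strand are not given in the sources used here. Their own positional test along each coding sequence cannot be run on gene counts and was not used here.

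Names, coordinates and coding sequences came from GENCODE release 44 (60463 of 60664 identifiers matched). Pulldown and input were compared within a line by edgeR 4.0.16 (R 4.3.3; TMM, filterByExpr, glmQLFit, glmQLFTest, no replicate block), with Benjamini-Hochberg adjusted p under 0.05 over all genes tested, and the interaction over 8 libraries. SDs are over 2 libraries a group. SEs are the size of the log2 fold change over the square root of edgeR's F statistic. They rest on dispersions moderated over genes, not on the spread of 2 libraries alone. Alternatives were DESeq2 1.42.0, the replicate number as a block, scaling by library totals, cyclic loess with limma 3.58.1, other filters, glmTreat, a joint fit, removal of genes over 25% under opposite-strand exons, and leaving out each library. Fits were tested on simulated counts. The members and lists were chosen with earlier results of these data known. Named genes were members called in a pulldown or highest or lowest of their list (13 genes). Other members given with values, among them IARS1, were chosen after their values were seen.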

Additional observations from a re-analysis of the deposited data

How the results depend on the processing

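In the TRiC pulldown, 6 cytosolic members were called lower. DESeq2, no count filter and removal of genes under opposite-strand exons called the same 6, the replicate block 9 (adding GARS1, TARS1 and WARS1), at least 100 counts 4, library totals 3, cyclic loess 2, and both glmTreat and the joint fit of 8 libraries 0. Single members were called higher where the main test called 0, namely 1 cytosolic (EPRS1) and 1 mitochondrial (AARS2) with the replicate block, with cyclic loess and with at least 100 counts, and the block also called 1 mitochondrial member (EARS2) lower. Those fits, in that order, called 2037 of 17934, 1569 of 17934 and 1699 of 11166 genes tested higher. The paper took both total RNA and pulldowns from ribosome pellets, and the labels give matching numbers. Neither says that same-numbered samples share a pellet, so the main test used no block. Same-numbered samples deviated together in the TRiC line (correlation 0.202) but not in the PFD line (-0.0216). With the block 2652 genes in place of 1894 were called lower in the TRiC pulldown. The cytosolic TRiC median was -0.077 and its difference from the mitochondrial one -0.067 after cyclic loess, and the mitochondrial TRiC median was 0.014 with library totals and 0.035 with at least 100 counts. Library totals moved the median of all genes to 0.04. In the PFD pulldown, DESeq2 called 1 cytosolic member higher, 1 lower and 1 mitochondrial member higher. LARS1 changed sign in the TRiC pulldown after cyclic loess (0.074) and with at least 100 counts (0.011), EPRS1 in the PFD pulldown with library totals (-0.00089) and cyclic loess (-0.0065), and SARS2 there with cyclic loess (-0.057). By CPM not divided by coding length, TARS1 ranked 4 rather than 1 in the TRiC input. Over the 13 named genes and the settings that keep all libraries, direction and call were kept in 90 TRiC values, the call was lost in 21 and gained in 4. In the PFD pulldown they were kept in 111 and a call was gained in 2. The cause of these changes was not tested.

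With a library left out, the lone sample was assumed to vary like the others. TRiC calls ranged from 2 to 10 cytosolic lower, 0 to 1 cytosolic higher, 0 to 2 mitochondrial higher and 0 to 1 mitochondrial lower. The TRiC medians ranged from -0.19 to -0.15 (cytosolic) and -0.04 to -0.02 (mitochondrial), and their difference from -0.17 to -0.11. The number of members called with PFD was highest without PFD pulldown replicate 2, where far more of all genes tested were also called, in both directions. These calls were therefore not read as a result about the members. The PFD medians ranged from -0.01 to 0.07 (cytosolic) and -0.15 to 0.12 (mitochondrial), and their difference from -0.14 to 0.23. The interaction called 0 to 3 members higher and 0 to 5 lower, the highest values without PFD pulldown replicate 2. For the interaction, the share of all genes called in these fits was not computed. Its counts were thus not read as a result about the members either. LARS1 ranged from -0.13 to 0.025 with TRiC. With PFD, EARS2 ranged from -0.40 to 0.46, EPRS1 from -0.093 to 0.14, KARS1 from -0.17 to 0.051, MARS1 from -0.023 to 0.22 and SARS2 from -0.26 to 0.27.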
